A study of Mus musculus with 20 samples.

Results

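Chemokine receptors are the genes described here, namely Ccr1, Ccr2, Ccr7, Cx3cr1, Cxcr2, Cxcr4 and Ccrl2. They were taken by name from the scRNA-seq tables, where all 7 were found among 15855 genes of the cultured cells and among 15333 genes of the tumor cells. The cultures comprised 2 libraries of B-MF, which are macrophages generated over a week from FACS-sorted B cells of mouse BM exposed to 4T1.2-CM, the conditioned medium of a mouse mammary cancer line, and 2 libraries of Mo-MF, generated from BM monocytes in that medium. Tumor cells came from 4 libraries of cells sorted as macrophages from 4T1.2 mammary tumors grown in BALB/c mice. Chromatin at the same genes came from 12 ATAC-seq libraries of CSF1R+ and CSF1R- B-cell precursors (BMBP), 3 of each from BM and from spleen of naive mice. All donors were young female mice, the cultures are an in vitro model in which conditioned medium takes the place of a tumor, and B cells for such cultures came from C57BL/CJ or BALB/CJ mice, with no strain given for these libraries. The tumor libraries came from 4 mice. Each ATAC-seq group comprised 3 libraries of naive mice, with no statement whether a library is a single animal or a pool, and the sources used here do not say that replicate cultures were separate, so the p-values measure the spread between these samples. The labels call the ATAC-seq cells macrophages, and start sites of 6 of 7 B-cell marker genes had a peak in all 12 libraries against 2 of 8 macrophage marker genes.

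Chemokine receptors are proteins with 7 membrane-spanning segments that couple to Gi proteins and steer leukocytes along gradients of chemokines. Ccr1 binds inflammatory CC chemokines such as Ccl3 and Ccl5, Ccr2 binds Ccl2 and brings monocytes out of BM, and Ccr7 binds Ccl19 and Ccl21 and leads dendritic cells and lymphocytes into lymph nodes. Cx3cr1 is the receptor of Cx3cl1 on monocytes and tissue macrophages, Cxcr2 guides neutrophils towards Cxcl1 and Cxcl2, and Cxcr4 retains immature leukocytes in BM through Cxcl12. Ccrl2 is an atypical member that binds chemerin and does not signal like the others.

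Corrected counts per cell were recovered from the deposited values, and a cell was called positive for a receptor with at least 1 corrected count. The level of a receptor is its mean corrected count per cell. The correction brings the cells of a table to a shared depth and was made separately for cultures and tumors, so values of both tables are given side by side with no test between them. Libraries of cultured cells held 4846 to 5389 cells with medians of 18350 to 19469 corrected counts, and tumor libraries held 2318 to 3180 cells with medians of 7651 to 8266. Pairs of libraries shared 0 to 14 cell barcodes. The summed level of 7 neutrophil markers was 1.0 to 1.39 in B-MF, 118 to 147 in Mo-MF and 460 to 798 in tumor cells, and that of 8 macrophage markers was 282 to 293, 590 to 600 and 14.5 to 33.8. Ly6g and Retnlg, which define neutrophils, were at or near 0 in B-MF. Monocyte markers summed to 1.01 to 3.43 in cultures and 11.8 to 15.1 in tumor cells, osteoclast markers to 3.07 to 10.3 and proliferation markers to 0.735 to 3.31 over all 8 libraries. B-cell markers reached 0.493 in cultures and 2.01 in tumor cells, and the basophil and mast, dendritic, epithelial, erythroid, fibroblast and T/NK lists reached no more than 1.38 in any library. Values of cultures covered 0 of 4 epithelial and 2 of 7 T/NK markers, and those of tumor cells 0 of 4 basophil and mast markers. Low sums of these lists there do not show that such cells were absent. Clusters that met neutrophil markers, called neutrophil-like, held 10.3% and 9.58% of the cells of Mo-MF 1 and Mo-MF 2 and 35.5% to 62.3% of tumor cells, although the latter were labelled macrophages. Only 3 cells of B-MF 1 and 0 of B-MF 2 lay there.

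Whether macrophages made from B cells and from monocytes carry the same receptors was asked by comparing B-MF with Mo-MF. Ccr1 was higher in B-MF, and Ccr2, Cxcr2, Cxcr4 and Ccrl2 were lower. Thus 1 of 5 tested receptors rose and 4 fell, where 22.6% of all 8633 genes were higher and 16.9% were lower at an adjusted p of 0.05 in limma with Benjamini-Hochberg adjustment. The shares of positive cells gave the same calls, 1 higher and 4 lower, against 9.38% and 11.7% of 11498 genes. Ccr7 and Cx3cr1 were below the filter of a mean of 0.1 and of 1% of cells and were not tested. Ccr2 and Cxcr2 passed the filter of level only through Mo-MF, and Cxcr2 passed that of share only through Mo-MF. A fall was thus the only call open to them in these fits, and the count of receptors that fell is to be read with this limit.

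**Figure D1:**
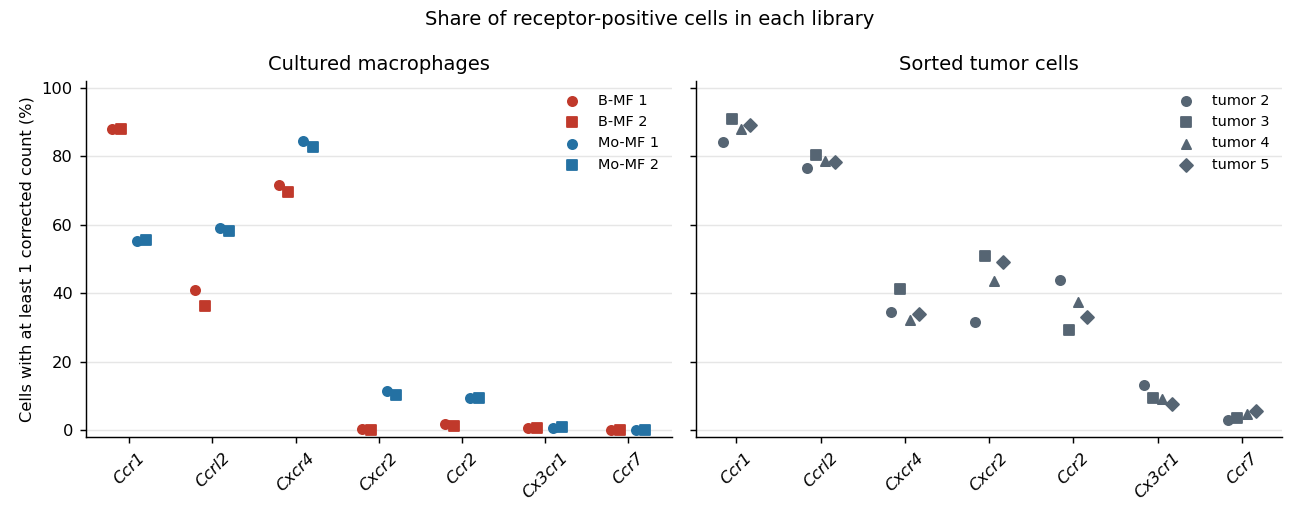
The vertical axis gives the percentage of cells with at least 1 corrected count of each receptor on the horizontal axis. Each symbol is 1 library of B-MF, Mo-MF or tumor cells. Ccr1 lies at 88.0% to 88.1% in B-MF against 55.4% to 55.6% in Mo-MF, while Cxcr2 lies under 1% in B-MF and at 31.7% to 51.0% in tumor cells.

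Ccr1 was detected in 88.1% and 88.0% of cells of the 2 B-MF libraries and in 55.4% and 55.6% of cells of the 2 Mo-MF libraries. The B-MF libraries held on average 4.33 and 4.27 and the Mo-MF libraries 2.06 and 1.93 corrected counts of Ccr1 per cell. Both B-MF libraries thus lay above both Mo-MF libraries, by 1.07 on the log2(mean + 0.1) scale (SE 0.054, adjusted p = 2.59e-06, limma). Of the Ccr1 counts of Mo-MF, 40.8% to 42.4% lay in neutrophil-like cells, 94.8% to 95.7% of which were positive. Without the neutrophil-like cells and a small Igkc-led and Mcpt8-led cluster, the log2 difference of Ccr1 was 1.67 (SE 0.052). Within macrophage-like cells, 87.5% to 87.7% were positive in B-MF and 46.7% to 47.6% in Mo-MF. These were different clusters, Myc-led and H2-Eb1-led in B-MF and Mmp14-led and Ly6a-led in Mo-MF, each named for a gene among its 10 leading genes. They held 87.0% and 89.7% of B-MF cells but 52.2% and 53.8% of Mo-MF cells. A further 31.8% and 30.5% of Mo-MF cells were left unnamed, most of them in an Arg1-led cluster that met osteoclast markers. Of the unnamed cells, 56.9% to 57.4% were positive for Ccr1 in Mo-MF and 93.5% to 95.6% in B-MF. These too were different clusters, since 269 of 319 and 188 of 232 unnamed cells of B-MF were Malat1-led. The Malat1-led cluster was 99.4% positive over both cell types, so the shares of unnamed cells do not compare like cells.

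Ccr2 was detected in 1.81% and 1.31% of B-MF cells and in 9.41% and 9.37% of Mo-MF cells. Its level of 0.0447 and 0.0351 in B-MF was below that of 0.641 and 0.608 in Mo-MF in every library, with a log2 difference of -2.37 (SE 0.057, adjusted p = 6.63e-08, limma). The size depends on the added 0.1, and was -3.68 with 0.01 and -0.64 with 1. The counts were concentrated in few cells. A monocyte-like cluster of 60 cells in each Mo-MF library was 98.3% to 100% positive, with a level of 25.2 to 26.6 (Ccr2 was among its leading genes), and held 46.2% to 51.3% of all Ccr2 counts of Mo-MF. Among other Mo-MF cells, 20.3% to 20.6% of Ly6a-led macrophage-like cells and 24.7% to 26.9% of cycling cells were positive, against 2.74% to 3.21% of Mmp14-led macrophage-like cells. The unnamed cells of Mo-MF, most of them Arg1-led, were positive at 2.55% to 4.16%. When the neutrophil-like, Igkc-led, monocyte-like and collagen-led cells were left out, the log2 difference of Ccr2 was -1.41 (SE 0.055, adjusted p = 2.32e-07, limma), a choice made after the values were seen.

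Cxcr2 had the largest log2 difference among the tested receptors, although with the mean of natural log values per cell it differed by -0.203 and Ccr1 by 0.714. It was detected in 0.496% and 0.15% of B-MF cells and in 11.4% and 10.2% of Mo-MF cells, with levels of 0.00573 and 0.00188 against 0.947 and 0.764. The log2(mean + 0.1) difference was -3.20 (SE 0.086, adjusted p = 1.01e-07, limma), which the added 0.1 makes smaller than the ratio of the levels, and was -5.98 with 0.01 and -0.88 with 1. In Mo-MF, 96.0% to 96.3% of Cxcr2 counts lay in neutrophil-like cells, of which 90.9% to 94.8% were positive. Macrophage-like cells of Mo-MF were positive at 0.830% to 0.966%, and the shares of B-MF lay below this at a like depth. The part of free RNA in these shares was not tested. Without the neutrophil-like cells Cxcr2 fell under the filter and had no test.

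Cxcr4 and Ccrl2 differed less. Cxcr4 was detected in 71.6% and 69.6% of B-MF cells and in 84.6% and 82.7% of Mo-MF cells, at levels of 1.90 and 1.85 against 2.80 and 2.69. Its log2 difference was -0.53 (SE 0.052, adjusted p = 0.000117, limma), and no library of one cell type reached the range of the other. Ccrl2 was detected in 41.0% and 36.2% of B-MF cells and in 59.1% and 58.2% of Mo-MF cells, at levels of 0.853 and 0.773 against 1.45 and 1.40. Its log2 difference was -0.74 (SE 0.059, adjusted p = 3.37e-05, limma), or -0.42 with 1 added in place of 0.1. Both calls were kept without the neutrophil-like and Igkc-led cells, at -0.56 for Cxcr4 and -0.78 for Ccrl2. Within B-MF, cycling cells were less often positive than the macrophage-like cells, at 18.8% to 21.6% against 36.9% to 42.0% for Ccrl2 and at 50.6% to 52.9% against 69.6% to 71.3% for Cxcr4.

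**Figure D2:**
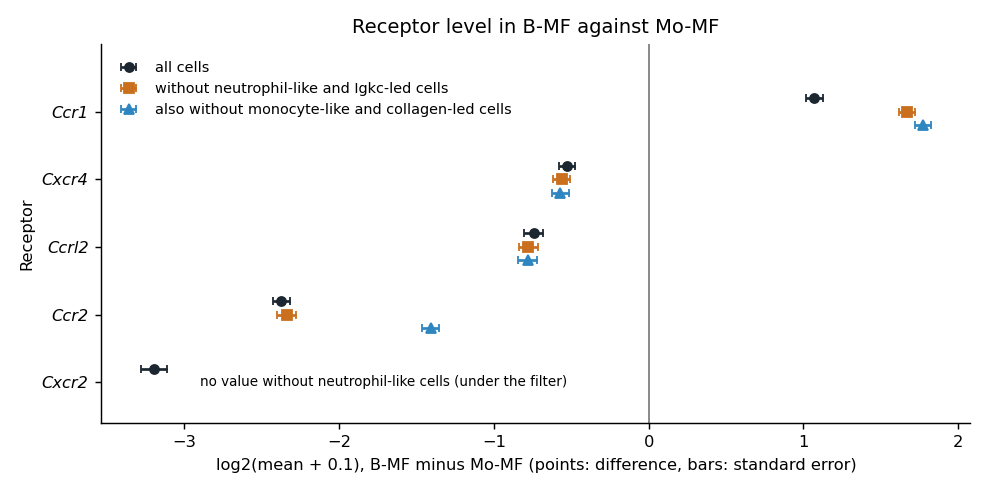
The horizontal axis gives the difference of log2(mean + 0.1) between B-MF and Mo-MF for the 5 tested receptors, with bars of 1 standard error from limma. Colors mark which cells were averaged. Ccr1 moves from 1.07 to 1.67 and 1.77 and Ccr2 from -2.37 to -2.34 and -1.41 as clusters are left out, while Cxcr4 and Ccrl2 stay between -0.53 and -0.78.

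Ccr7 and Cx3cr1 were close to absent from the cultures. Ccr7 was found in 0 of 5237 and 0 of 5326 B-MF cells and in 0 of 4846 cells of Mo-MF 1, which allows shares of up to 0.0573%, 0.0563% and 0.0619% by a limit of 3 cells, or 0.0704%, 0.0692% and 0.0761% by the two-sided 95% exact binomial interval. In Mo-MF 2 it was found in 6 of 5389 cells, or 0.111% (95% exact binomial interval 0.0409% to 0.242%). Cx3cr1 was detected in 0.611% and 0.676% of B-MF cells and in 0.743% and 0.891% of Mo-MF cells. Neutrophil-like cells of Mo-MF, a type not known for Cx3cr1, were positive at 0.8% in Mo-MF 1 and 0.388% in Mo-MF 2 with median depths of 17484 and 17904, from 4 and 2 positive cells. Both B-MF shares and that of Mo-MF 1 lay at or below the higher of these values and were not read as expression, while that of Mo-MF 2 lay slightly above. The part of free RNA was not tested. Above this level were the monocyte-like cells of Mo-MF, with 13.3% in both libraries, cycling cells, with 3.18% to 3.64% in B-MF and 2.31% to 2.95% in Mo-MF, and by a small margin the Ly6a-led cells of Mo-MF, with 1.03% to 1.19%.

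Shares depended on the depth to which cells were brought. After thinning to 5000 corrected counts per cell, which left out 0 cells, Ccr1 was detected in 58.1% and 59.95% of B-MF cells and in 29.0% and 27.9% of Mo-MF cells. Cxcr4 then stood at 35.7% and 35.3% against 46.5% and 45.1%, and Ccr2 at 0.726% and 0.620% against 5.45% and 5.70%. The order of B-MF and Mo-MF was thus kept for these receptors. In Malat1-led cells, a cluster with mitochondrial transcripts among its leading genes, 99.2% to 100% of cells were positive for Ccr1 and for Cxcr4 in both cell types, at levels of 1.59 to 3.46 for Ccr1 and 1.5 to 1.92 for Cxcr4. The counts before correction were not analysed here, and the part of the correction in these shares was not tested.

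Other genes of the pathway were taken from 3 lists. Of 18 further chemokine receptors, 11 were in the table and 2 had a level that could be tested, and both fell, where 16.9% of all genes did. Cmklr1, a signalling receptor of chemerin, had levels of 0.0867 and 0.0650 in B-MF against 0.271 and 0.257 in Mo-MF, which gave -1.05 on the log2 scale (SE 0.068, adjusted p = 9.65e-06, limma). It passed the filter of level only through Mo-MF, so a fall was the only call open to it. Ccr3, the eotaxin receptor, was tested only by share and was detected in 2.48% and 1.95% of B-MF and in 1.26% and 1.5% of Mo-MF cells, a difference of 0.69 in log2 odds (SE 0.214, adjusted p = 0.00806, limma). In this fit of shares limma gave every gene the same standard error.

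Of 18 tested chemokine ligands 14 rose and 4 fell in B-MF, where 22.6% and 16.9% of all genes did. Their median was 0.71 on the log2 scale, and that of all genes 0.02. Pf4, a platelet and macrophage CXC chemokine, stood at 143 and 140 in B-MF against 32.3 and 29.6 in Mo-MF, or 2.19 higher in log2. Ccl24, a ligand of Ccr3, rose by 2.01 and Cxcl5, a ligand of Cxcr2, by 1.77 on the same scale. Among the 4 that fell, Ccl8 was at 7.15 and 6.56 in B-MF against 24.0 and 23.1 in Mo-MF, with a log2 difference of -1.77, followed by Cxcl3 at -1.54 and Cxcl16, the ligand of Cxcr6, at -0.94. Cxcl3 was detected in only 4.33% and 3.79% of Mo-MF cells, and with finer clusters it was among the leading genes of a cluster of 818 cells that met neutrophil markers and held 3 cells of B-MF. Of 25 tested genes of receptor signalling and desensitization 5 rose, 9 fell and 11 did not pass the test, with a median of -0.01, and the number that rose was near the 22.6% of all genes. Rgs10 rose by 0.42 and Rgs18 by 0.24, both regulators that shorten G protein signals, and Elmo1, a partner of Dock proteins in Rac activation, rose by 0.24. Grk3, a kinase that desensitizes receptors, had a difference of -0.83, Pik3r5, a regulatory subunit of PI3K gamma, of -0.72 and Plcb2, a phospholipase downstream of Gi-coupled receptors, of -0.37. Among the genes named here, Ccl24 and Cxcl5 passed the filter of level only through B-MF, and Cxcl3 and Grk3 only through Mo-MF. The direction of their calls was thus fixed by the filter.

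Tumor cells carried all 7 receptors, and the following values describe 4 libraries that could not be matched to single labelled samples. Ccr1 was detected in 84.2%, 91.0%, 87.9% and 89.1% of cells of tumor libraries 2 to 5, and Ccrl2 in 76.6%, 80.4%, 78.8% and 78.5%. Both ranges were narrow. Cxcr2 was detected in 31.7%, 51.0%, 43.7% and 49.3% of cells and Ccr2 in 44.0%, 29.3%, 37.6% and 33.2%, so that the library with the lowest Cxcr2 share had the highest Ccr2 share. The neutrophil-like share of these libraries was 35.5%, 62.3%, 46.6% and 54.9%. Cxcr4 was detected in 34.5%, 41.2%, 32.2% and 34.1% of cells, Cx3cr1 in 13.3%, 9.53%, 9.09% and 7.83%, and Ccr7 in 3.18%, 3.71%, 4.69% and 5.57%.

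Receptors divided the tumor cells by cluster, and since the clusters were built from the same cells their values are a description with no test. The receptors were left out of the genes used for clustering. Cxcr2 was detected in 68.7% to 74.6% of neutrophil-like cells, which held 86.5% to 91.6% of its counts. In monocyte/macrophage-like cells, which met both marker lists, 10.2% to 21.8% were positive. In C1q-led macrophage-like cells, which also met proliferation markers, 17.5% to 42.0% were positive. T/NK-like and dendritic-like cells, which are not known for Cxcr2, were positive at 3.70% to 3.85% and 3.19% to 8.24%, with median depths of 8240 to 8640 corrected counts against 8238 to 8582 in the 2 macrophage classes. B-like cells were positive at 6.76% to 11.5% with median depths of 7428 to 7602, so the lowest share of monocyte/macrophage-like cells lay within the range of a type that should lack Cxcr2. In tumor libraries 2 to 5 the Cxcr2 share of monocyte/macrophage-like cells was 10.2%, 21.8%, 18.5% and 16.6%, lowest and highest in the libraries with the lowest and the highest share of neutrophil-like cells. The part of free neutrophil RNA in these shares was not tested. Nor were the shares even within these classes. With finer clusters (resolution 1, libraries pooled), Spon1-led cells that met monocyte and macrophage markers were 63.4% positive for Cxcr2 (528 cells), against 6.70% of Thbs1-led cells (1045 cells) and 3.26% of Tmem176b-led cells (951 cells). Likewise, Ccl8-led cells, which met macrophage and neutrophil markers, were 51.7% positive (410 cells) and C1qc-led cells 15.1% (615 cells).

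**Figure D3:**
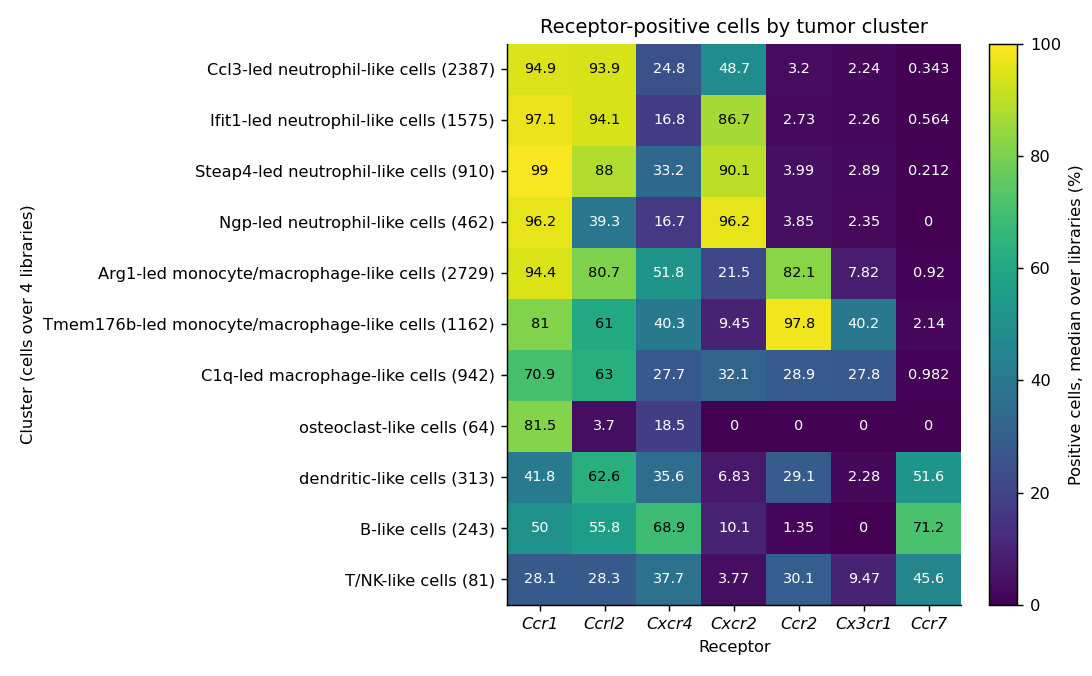
Each cell of the grid gives the percentage of positive cells of a tumor cluster (vertical axis, with its number of cells) for a receptor (horizontal axis), as the median over libraries with at least 20 cells of the cluster. Ccr2 is highest in the Tmem176b-led cluster at 97.8%, Cxcr2 in the Ngp-led cluster at 96.2% and Ccr7 in B-like cells at 71.2%, an order for Ccr7 that turned with finer clusters.

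Ccr2 showed the converse distribution. It was detected in 84.3% to 92.1% of monocyte/macrophage-like cells, which held 88.4% to 93.0% of its counts, and in 2.66% to 3.89% of neutrophil-like cells. B-like cells were positive at 0% to 2.75%, so the share in neutrophil-like cells lay close to that of a type with little Ccr2. Of the 2 monocyte/macrophage-like clusters, the Tmem176b-led cells were positive at 95.3% to 98.8% with a level of 7.76 to 10.1, and the Arg1-led cells at 79.9% to 88.3% with a level of 3.58 to 4.38. The C1q-led macrophage-like cells varied most between libraries, from 17.7% to 53.2%. Dendritic-like cells, at 23.8% to 37.6%, and T/NK-like cells, at 23.1% and 37.0%, overlapped with that range. The C1q-led cluster was mixed, with the proliferation gene Top2a among its leading genes. With finer clusters, Hist1h1b-led cells met monocyte and proliferation markers and numbered 10, 50, 33 and 35 in tumor libraries 2 to 5. The part of cycling cells in the C1q-led range was not tested. Osteoclast-like cells had 0 positive cells among 27 in tumor library 2.

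Cx3cr1 followed the same cells in part. The Tmem176b-led cluster was positive at 37.0% to 43.9%, the C1q-led cells at 20.4% to 36.6% and the Arg1-led cells at 5.84% to 8.52%, and these ranges did not overlap. The 5.84% to 8.52% of the Arg1-led cells lay above the 1.62% to 3.1% of neutrophil-like cells, 0% to 1.83% of B-like cells and 2.13% to 4.71% of dendritic-like cells. They were not above T/NK-like cells, at 7.41% and 11.5%. Together the monocyte/macrophage-like and macrophage-like classes were the main sources of Cx3cr1, with 44.2% to 71.8% and 19.7% to 51.1% of its counts.

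Neutrophil-like clusters differed from each other in Cxcr2 and Ccrl2. Ngp-led cells, which also had Ltf and Camp among their leading genes, were positive for Cxcr2 at 93.5% to 99.3%, Steap4-led cells at 88.3% to 93.5%, Ifit1-led cells at 83.8% to 88.7% and Ccl3-led cells at 46.8% to 50.9%. Neighbors in this order met or nearly met, except for the Ccl3-led cells, which stood apart. Ccrl2 ran the other way in part, with 32.7% to 47.4% of Ngp-led cells positive at a level of 1.51 to 2.12, against 92.8% to 94.0% of Ccl3-led cells at a level of 18.3 to 22.3 and 92.6% to 95.9% of Ifit1-led cells at 20.4 to 25.6. Ccr1 was at 91.8% or more in every library of all 4 clusters, with levels of 6.76 to 8.73 in Steap4-led, 6.28 to 7.68 in Ifit1-led and 5.35 to 6.24 in Ccl3-led cells, of which the first 2 overlapped, and of 3.53 to 4.59 in Ngp-led cells. Cxcr2 was itself among the leading genes of the Steap4-led cluster, as was Ccr2 of the Tmem176b-led and Ccr7 of the dendritic-like cluster.

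Ccr1 and Ccrl2 extended beyond neutrophil-like cells. Ccr1 was detected in 87.5% to 91.2% of monocyte/macrophage-like, 60.4% to 72.9% of C1q-led and 28.6% to 43.6% of dendritic-like cells. Ccrl2 was detected in 74.4% to 75.5%, 55.2% to 65.4% and 58.8% to 68.1% of the same classes. T/NK-like cells were positive at 19.2% and 37.0% for Ccr1 and at 26.9% and 29.6% for Ccrl2. B-like cells were positive at 30.3% to 62.2% for Ccr1 and at 39.4% to 62.2% for Ccrl2, which overlapped the C1q-led and dendritic-like ranges of both receptors. The parts of free RNA and of shared expression in these shares were not tested. In osteoclast-like cells of tumor library 2, 81.5% of 27 cells were positive for Ccr1 and 3.70% for Ccrl2. Cxcr4 was most often detected in B-like cells, at 66.1% to 78.8%, and in Arg1-led monocyte/macrophage-like cells, at 48.2% to 60.2%, whereas neutrophil-like cells were positive at 20.5% to 32.9%.

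Ccr7 was concentrated in few cells of the tumor libraries. B-like cells were positive at 66.2% to 80.7% in the 3 libraries with at least 20 such cells, dendritic-like cells at 47.1% to 61.9% and T/NK-like cells at 29.6% and 61.5%. Dendritic-like cells had a level of 10.5 to 17.8 against 2.14 to 2.96 in B-like cells, and held 72.8% to 86.9% of all Ccr7 counts. The dendritic-like cells were mixed. With finer clusters, 99.0% of 103 cells with Fscn1, Ccl22 and Ccr7 among their leading genes were positive, at a level of 32.9, above the 83.1% and 16.7% of both B-like clusters, and in these 103 cells 11.7% were positive for Ccr1 and 5.83% for Ccr2. The neutrophil-like, monocyte/macrophage-like and C1q-led classes were positive at no more than 1.69%. The Ccr7 shares of whole libraries had the same order as their B-like shares, which were 0.252%, 2.24%, 3.1% and 3.63% in tumor libraries 2 to 5. The part of the B-like cells in the Ccr7 shares was not tested.

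Mutual exclusion was described by counting cells with both receptors of a pair against the number that independence within a library would give. All 21 pairs had at least 5 expected cells in every tumor library, and 12 pairs had fewer and 8 had more shared cells than expected in all 4 libraries. Ccr2 and Cxcr2 were among the most exclusive. Both were found in 4.91%, 6.64%, 7.46% and 6.77% of cells of tumor libraries 2 to 5, where independence gave 14.0%, 14.9%, 16.4% and 16.4%. The ratios were thus 0.351 to 0.454, and 65.9% to 68.9% of cells had exactly 1 of these receptors. Ccr7 and Cxcr2 shared 0.182 to 0.468 of the expected cells, Ccr7 and Cx3cr1 0.298 to 0.688, and Cx3cr1 and Cxcr2 0.527 to 0.587.

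Pairs above expectation were led by Ccr2 and Cx3cr1, with ratios of 1.32 to 2.58. Ccr7 and Cxcr4 had ratios of 1.29 to 1.69, Ccr2 and Cxcr4 of 1.29 to 1.39 and Cx3cr1 and Cxcr4 of 1.10 to 1.42. Ratios of receptors found in most cells cannot depart far from 1, and Ccr1 with Ccrl2 was at 1.03 to 1.05. When independence was taken within each cluster, 4 pairs stayed below and 7 above 1 in every library. These counts were 3 and 9 with finer clusters, 6 and 6 after thinning and 6 and 8 with at least 2 corrected counts. Ccr2 and Cxcr2 then had ratios of 0.914 to 0.984 and Ccr2 and Cx3cr1 of 1.02 to 1.05. For Ccr2 with Cxcr2, most of the departure in whole libraries was thus present between clusters and not within them. For Ccr2 with Cx3cr1 the ratio within clusters was close to 1 too. Ccr2 was found in most cells of both monocyte/macrophage-like clusters, however, so this ratio could not rise far above 1 there. The pairs that stayed below 1 were Ccr2 and Cxcr2, Ccr1 and Ccr7 at 0.775 to 0.942, Ccr1 and Cx3cr1 at 0.965 to 0.983, and Ccr2 and Ccr7 at 0.707 to 0.949, the last of which was not below 1 in every library with finer clusters.

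**Figure D4:**
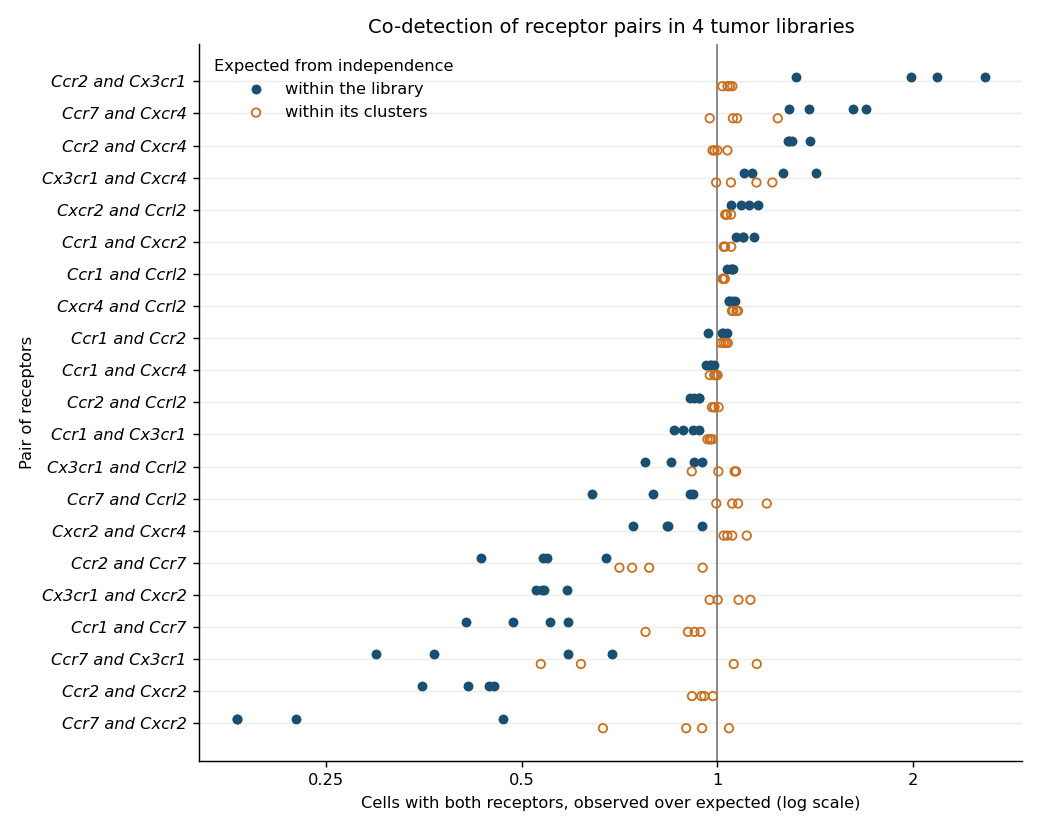
The horizontal axis, on a log scale, gives cells with both receptors of a pair as a ratio of observed over expected, with 1 symbol for each of 4 tumor libraries. Filled symbols take the expected number from whole libraries and open symbols from each cluster. Ccr2 and Cxcr2 move from 0.351 to 0.454 up to 0.914 to 0.984, and Ccr2 and Cx3cr1 from 1.32 to 2.58 down to 1.02 to 1.05.

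Pairs were described in cultures in the same way. In Mo-MF, 13 pairs could be described, of which 7 were below and 5 above 1 in both libraries. Ccr2 and Cxcr2 had ratios of 1.53 and 1.77 there, above 1 and not below it as in the tumor, and Ccr1 and Cxcr2 had ratios of 1.64 and 1.66. Within clusters these pairs were at 1.07 in both libraries and at no more than 1.02, respectively. The lowest ratios of Mo-MF were those of Ccr2 with Ccrl2, at 0.735 and 0.768, and of Ccr2 with Cxcr4, at 0.797 and 0.824. In B-MF 11 pairs could be described, with 3 below and 2 above 1 in both libraries, and Cxcr4 with Ccrl2 was at 1.07 in both. Cells of B-MF had a mean of 2.04 and 1.96 of the 7 receptors, cells of Mo-MF 2.21 and 2.17, and tumor cells 2.88 to 3.06. Among tumor cells the mean was 2.81 to 2.90 in neutrophil-like and 3.21 to 3.55 in monocyte/macrophage-like cells.

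Genes with the most similar pattern were sought over 38 points, each a tumor cluster in 1 library with at least 20 cells. The points share libraries and depth, and the correlations are a description. Ccr2 was most like Tmbim1 (Pearson r = 0.957), Mcub (0.946) and Ms4a6c (0.945), and Cx3cr1 was most like Adgre1 (0.905), Selenop (0.9) and Itm2b (0.898). For Cxcr2 these were Rdh12 (0.979), Chil1 (0.977) and Mrgpra2b (0.974), and for Ccrl2 Nlrp3 (0.948), Ptgs2os2 (0.913) and Maff (0.913). Ccr1 was most like Rabgef1 (0.944), Rnf149 (0.933) and Nipsnap3b (0.931), and Ccr7 was most like Stat4 (0.980), Birc2 (0.969) and Rabgap1l (0.969). Cxcr4 had the lowest values, with Pwwp2a (0.828), Tra2b (0.828) and Znrd1 (0.814). Between members, r was highest for Ccr2 with Cx3cr1 (0.803) and Ccr1 with Cxcr2 (0.791) and lowest for Ccr1 with Ccr7 (-0.833).

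Whether chromatin at these genes differs between BM and spleen or by CSF1R was asked in BMBP by ATAC-seq. On GRCm38, Ccr1 lies on chromosome 9 from 123962124 to 123968692 on the minus strand and Ccr2 from 124101950 to 124113557 on the plus strand, 133 kb apart. Cx3cr1 (119901616 to 120069879) and Ccrl2 (111054486 to 111057519) are on the minus strand of the same chromosome. Cxcr2 (74153989 to 74161246, plus strand) and Cxcr4 (128588199 to 128592293, minus strand) are on chromosome 1, and Ccr7 (99144196 to 99155077, minus strand) is on chromosome 11. Peaks of the 12 libraries were merged into 101333 regions, of which 73 lay in or within 10 kb of a receptor gene. Cx3cr1 held 33 of these because the annotation gives it a transcript of 168 kb that runs past other genes, and with the shorter RefSeq gene bodies 44 regions remained, 5 of them at Cx3cr1. Libraries of BM had 65832 to 76530 peaks and libraries of spleen 43407 to 50392, and their peak lists hold no read depth.

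Of the 73 regions 32 had a peak in all 12 libraries, against 30.1% of all regions. In 9 a peak was present in all 6 BM and in 0 of 6 spleen libraries, a pattern found in 11.2% of all regions, and in 1 it was present in 0 of 6 BM and all 6 spleen libraries, found in 2.01%. With 12.3% of 73 regions, the first of these patterns was near its background. Of the 9 regions, 4 lay at Cxcr2. Cxcr2 had 7 regions and none had a peak in spleen, although 3 of them had one in only 1 or 2 BM libraries. Peaks in 1 or more BM and in 0 of 6 spleen libraries were common, with 42% of all regions and 31 of the 73, and the converse was found in 8.86% of all regions and in 4 of the 73. Its start site (region 4) had fold enrichments of 4.85, 4.92 and 5.48 in CSF1R+ and 4.65, 5.04 and 7.14 in CSF1R- libraries of BM, and the other 3 lay in an intron (region 5), in an exon outside the coding part (region 6) and 13.1 kb downstream of the start (region 7). Start sites of the neutrophil genes S100a8 and S100a9 also had peaks in all 6 BM and 0 of 6 spleen libraries, Csf3r had them in 5 and Retnlg and Ly6g in 3 BM libraries and in no spleen library, whereas G0s2 had them in 10 of 12 libraries and Mmp9 in none. Outside the neutrophil list, the macrophage marker Adgre1 had peaks in all 6 BM and 0 of 6 spleen libraries. The T/NK markers Nkg7 and Gzma had them in 4 and 2 BM libraries and in no spleen library. The remaining macrophage and T/NK markers had peaks in all 12 libraries or in none. The cells had been sorted as B-cell precursors, and the source of these BM peaks and of those at Cxcr2 was not tested.

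**Figure D5:**
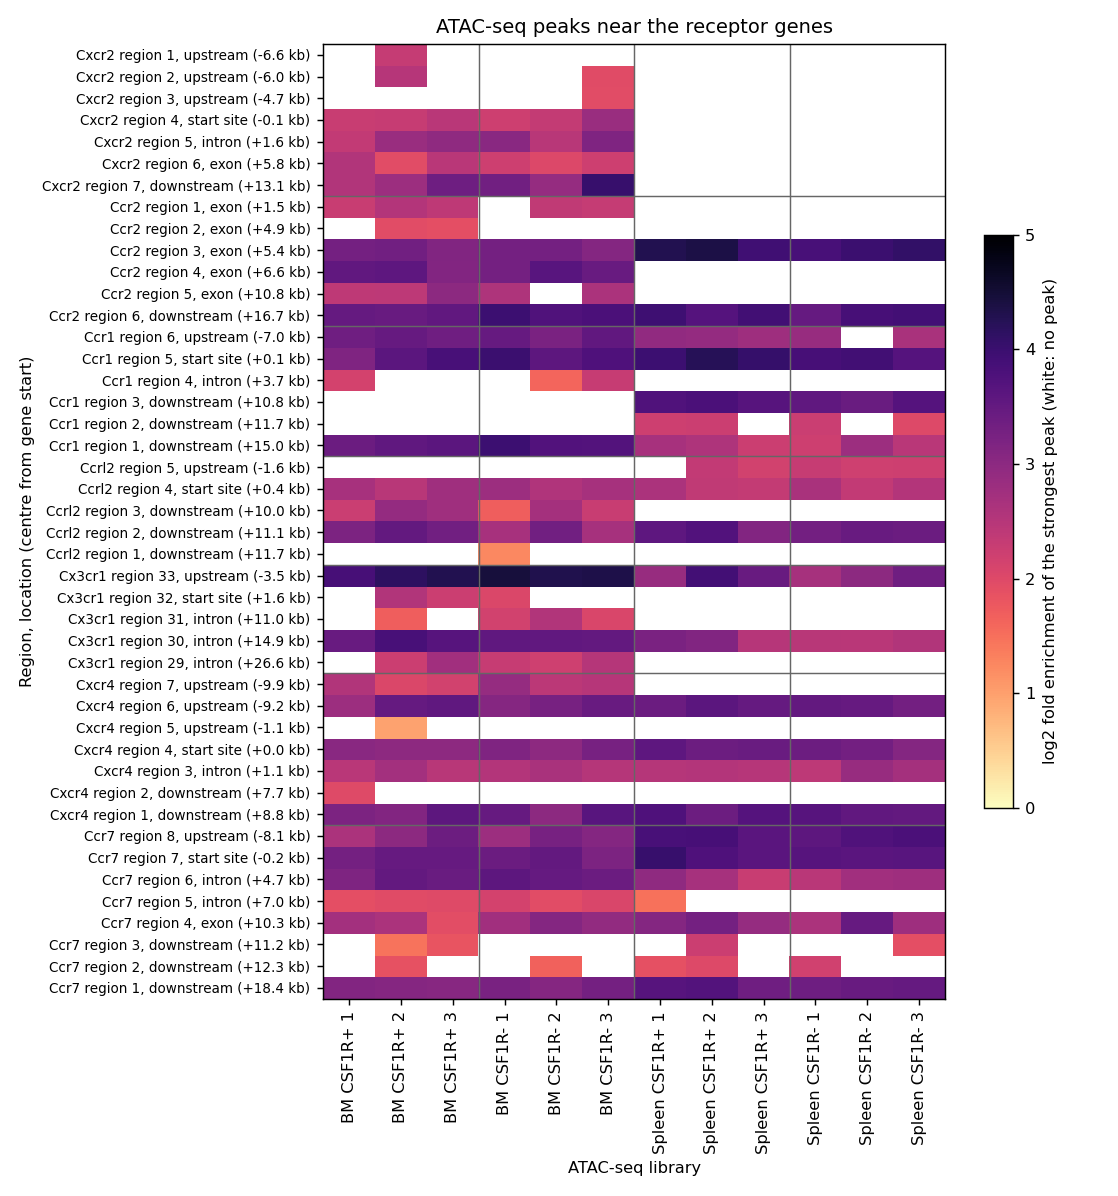
Rows are the 44 regions within 10 kb of the RefSeq bodies of the receptor genes, with the distance of their centre from the gene start in the direction of transcription, and columns are the 12 ATAC-seq libraries. Color gives the log2 fold enrichment of the strongest peak and white stands for no peak. All 7 regions of Cxcr2 are white in the 6 spleen libraries, and Ccr1 region 3 is white in the 6 BM libraries.

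Ccr2 had 7 regions, 4 of them with peaks in BM only, a pattern of 42% of all regions, and exon region 4 had a peak in all 6 BM libraries, with fold enrichments of 8.67 to 12.5. No library had a peak over the 300 bases around the Ccr2 start site. Cxcr4, Ccrl2 and Ccr7 had a peak at the start site in all 12 libraries, as did Ccr1, while the start site region of Cx3cr1 had one in 3 BM libraries and in no spleen library. Ccr1 region 3, 10.8 kb downstream of the start of Ccr1 and past its end, was the region with peaks in all 6 spleen libraries only, with fold enrichments of 10.8 to 14.0. Ccrl2 region 5, upstream of that gene, had peaks in 5 spleen libraries and in no BM library.

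Sequences are shown for the Cxcr2 and Ccr2 starts, which had peaks in BM only and in no library, respectively, for the Cxcr4 start, which had them in all 12, and for Ccr1 regions 1 and 3, whose signal differed between BM and spleen in opposite directions. The starts are RefSeq promoters of GRCm38.p6 from 250 bases before to 50 after a start, written on the strand of the gene, with Cxcr2 at chr1:74153744-74154043 on the plus strand, Ccr2 at chr9:124101933-124102232 on the plus strand and Cxcr4 at chr1:128592250-128592549 on the minus strand. Entries matched 6 receptors, and Ccr7 had none. The windows of Ccr1 are the central 200 bases of region 1, chr9:123953641-123953840, and region 3, chr9:123957828-123958027, on the plus strand of GRCm38. Capitals mark matches on either strand to the letters of 6 motifs, PU.1 (GGAAGT), EBF1 (CCCNNGGG), AP-1 (TGANTCA), C/EBP (TTGCNNAA), RUNX (TGTGGT) and the NF-kB motif.
Cxcr2: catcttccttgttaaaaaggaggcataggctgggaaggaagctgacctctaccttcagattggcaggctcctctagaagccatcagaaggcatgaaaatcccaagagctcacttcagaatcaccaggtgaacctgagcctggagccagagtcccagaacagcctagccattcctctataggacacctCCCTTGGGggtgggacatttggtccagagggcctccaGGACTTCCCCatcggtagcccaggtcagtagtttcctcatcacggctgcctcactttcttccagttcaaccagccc
Ccr2: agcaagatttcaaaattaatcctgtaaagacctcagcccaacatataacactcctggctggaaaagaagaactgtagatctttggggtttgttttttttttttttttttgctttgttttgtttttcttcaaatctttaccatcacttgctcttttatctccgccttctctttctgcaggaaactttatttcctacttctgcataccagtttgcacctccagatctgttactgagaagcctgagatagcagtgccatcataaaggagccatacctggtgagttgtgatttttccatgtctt
Cxcr4: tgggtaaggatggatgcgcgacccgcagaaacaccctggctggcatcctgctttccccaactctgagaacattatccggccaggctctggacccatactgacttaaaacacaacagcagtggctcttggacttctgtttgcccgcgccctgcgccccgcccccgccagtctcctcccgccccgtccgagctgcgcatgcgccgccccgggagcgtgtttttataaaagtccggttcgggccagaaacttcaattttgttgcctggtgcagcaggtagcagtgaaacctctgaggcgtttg
Ccr1 region 1: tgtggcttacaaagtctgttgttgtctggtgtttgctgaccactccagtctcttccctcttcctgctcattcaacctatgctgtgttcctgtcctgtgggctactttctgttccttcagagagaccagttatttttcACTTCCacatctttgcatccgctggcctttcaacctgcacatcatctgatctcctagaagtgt
Ccr1 region 3: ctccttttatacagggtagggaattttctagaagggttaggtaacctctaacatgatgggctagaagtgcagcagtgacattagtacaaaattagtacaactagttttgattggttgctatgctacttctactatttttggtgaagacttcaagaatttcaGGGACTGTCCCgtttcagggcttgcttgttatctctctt

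The Cxcr2 promoter held 1 match each to EBF1, PU.1 and NF-kB, the last of them overlapping the PU.1 match. The promoters of Ccr2 and Cxcr4 held no match to the 6 motifs. Ccr1 region 1, stronger in BM, held 1 match to PU.1. Ccr1 region 3, present in spleen, held 2 overlapping matches to the loose NF-kB letters, 1 on each strand of the same stretch. Of 32851 promoters of this length, 23.8% held PU.1, 13.7% EBF1 and 50.8% NF-kB, and of 101330 windows of 200 bases 26.4% held PU.1 and 31.1% NF-kB. These letters are common, and a match is a description and not a binding site.

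Peak strength was compared in the 32 regions with a peak in every library, as log2 fold enrichment relative to the median of its library. Of these 7 were stronger and 13 weaker in BM than in spleen, against 22.9% and 28.2% of 30492 regions, at an adjusted p of 0.05 in limma. The shares of the receptor regions were 21.9% and 40.6%. With the RefSeq gene bodies, 5 were stronger and 5 weaker of 17. With fold enrichment as deposited, not divided by the library median, 6 of the 32 were stronger and 15 weaker, and of all regions 5400 were stronger and 11304 weaker in place of 6983 and 8596. Ccr1 region 1, 15.0 kb downstream of the start of Ccr1, had a mean fold enrichment of 11.4 in CSF1R+ and 14.0 in CSF1R- cells of BM and of 5.70 in both spleen groups, and no spleen library reached the range of BM. Its difference was 1.23 (SE 0.091, adjusted p = 9.41e-07, limma). The start site of Ccr1 differed by -0.22 (SE 0.102, adjusted p = 0.0890), and passed without BM CSF1R+ replicate 3 (adjusted p = 0.0356) or spleen CSF1R- replicate 3 (adjusted p = 0.0486).

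At Ccr2, region 3 was weaker in BM, with fold enrichments of 9.56 and 9.38 against 18.5 and 15.7 in spleen and a difference of -0.77 (SE 0.075, adjusted p = 7.96e-06). At Ccr7 regions moved both ways. Intron region 6 was stronger in BM by 0.86 (SE 0.086, adjusted p = 9.44e-06), whereas upstream region 8 differed by -0.64 (SE 0.107, adjusted p = 0.000396) and the start site by -0.27 (SE 0.070, adjusted p = 0.00777). Cx3cr1 was stronger in BM at upstream region 33, by 1.10 (SE 0.156, adjusted p = 0.000127), and at intron region 30, by 0.94 (SE 0.091, adjusted p = 7.22e-06). Region 19, which belongs to Cx3cr1 only through the long transcript, had the largest difference of the 32, at -2.28 (SE 0.108, adjusted p = 6.66e-08). Start sites of Cxcr4 and Ccrl2 differed little, by -0.23 (SE 0.082, adjusted p = 0.0362) and 0.26 (SE 0.083, adjusted p = 0.0227). The call of Cxcr4 was lost on leaving out any 1 of 8 libraries, namely BM CSF1R+ 2 or 3, BM CSF1R- 1 or 2, spleen CSF1R+ 1 or 3 and spleen CSF1R- 1 or 2, and that of Ccrl2 on leaving out BM CSF1R+ 1 or 3, BM CSF1R- 1, spleen CSF1R+ 2 or spleen CSF1R- 2.

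Between CSF1R+ and CSF1R- cells none of the 32 tested receptor regions was called in either tissue. Only regions with a peak in all 12 libraries were fitted. Regions without a peak in spleen, such as all those at Cxcr2, could thus not be called. The paper reported regions more open in CSF1R+ than CSF1R- cells of BM, most of which stayed closed in spleen. It called them with DESeq2 and a fold-change cutoff, whereas the fit here used the fold enrichment of the strongest peak. The counts of called regions are thus not like for like and do not test that report. How well a contrast of 3 against 3 libraries recovers a change was not simulated. In BM 2 of 30492 regions were called higher in CSF1R+ cells, or 0.00656%, and 0 were called lower, and in spleen 0 were called in either direction (limma, adjusted p of 0.05). The count over all regions was unstable. With fold enrichment as deposited 0 were higher and 1 lower in BM and 1 was higher in spleen, and with single libraries left out 0 to 4 were higher in BM, 4 of them without spleen CSF1R+ replicate 1. Receptor regions called by CSF1R stayed at 0 in each of these fits. At an unadjusted p under 0.05, 2515 of all regions and 2 of the 32 receptor regions differed in BM, and 2206 and 5 in spleen. The 2 in BM were Ccrl2 region 2, at 0.57 (SE 0.172, adjusted p = 0.388), and Ccr2 region 7, at 0.55 (SE 0.189, adjusted p = 0.457). No receptor region had a peak in all 3 libraries of one CSF1R group and in none of the other, patterns that 0.613% and 0.503% of all regions had in BM and 0.439% and 0.0336% in spleen. When a peak had to cover 50% of its region, 1 of 73 receptor regions had the CSF1R+ pattern in BM, or 1.37% against 0.695% of all regions. The difference between the CSF1R effects of both tissues was tested too, and 0 of 30492 regions passed in limma, with 2822 at an unadjusted p under 0.05. With fold enrichment as deposited 2 were called lower, none of them a receptor region, and 5986 had an unadjusted p under 0.05.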

How the data were processed

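Macrophages and tumor cells of mouse were profiled by droplet scRNA-seq and BMBP by ATAC-seq. Per cell, the authors derived counts by Cell Ranger and SCTransform and deposited the natural log of the corrected count plus 1. Converted back, every nonzero value was whole within a relative 1e-05. For ATAC-seq the authors aligned trimmed reads to mm10 with BWA, ran MACS on every library separately and deposited the fold enrichment and the −log10 q-value of each peak, without read counts.

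Means per library, as log2(mean + 0.1), and log2 odds of positive shares were compared with limma 3.58.1 (R 4.3.3), with libraries as replicates and adjustment over all features of a table. In data simulated on 8633 genes for B-MF against Mo-MF, 98% of genes changed by 1 (log2) and 72% of those changed by 0.5 were recovered by level. By share, 46% and 0% were recovered on 11498 genes, and for peak strength between BM and spleen, 58% of 0.5 and 12% of 0.25 on 30492 regions. Exact binomial intervals and limits cover counting error only. Cells were clustered with leidenalg 0.10.2 at resolution 0.5 on 30 components of 2000 genes without chemokine receptors. Doublets were not called. For peaks, the strongest fold in a region was divided by its library's median. Gene positions are from GENCODE. The receptors and all gene lists were chosen with earlier results of these data known, the lists being other chemokine receptors, chemokine ligands and receptor signalling, from which up to 3 genes each way were named, and cell type markers. The merged peak list was not used. Values of 1 gene that the rule would name are not reported here. Alternatives were other pseudocounts, filters, scalings, thresholds, cell subsets, a replicate block and each library left out.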

Additional observations from a re-analysis of the deposited data

Results flagged for a closer look

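In groups of 4 tumor libraries, a single library stood apart from the other 3 (Dixon's test at 95%) in 6 of 42 groups of values, where chance gives about 1 in 20. The groups share libraries, cells and receptors and are not independent, so this count is a description. The share of Ccr1-positive dendritic-like cells was 28.6% in tumor library 3 against 41.2% to 43.6% in the others, and the Cxcr4-positive share of the same cells was 40.5% in that library against 35.1% to 35.9%. Both shares rest on few cells, since tumor library 3 held 42 dendritic-like cells and the others 85 to 94. The level of Cxcr4 over all cells was also high in tumor library 3, at 1.05 against 0.710 to 0.751. Cx3cr1 was found in 4.71% of dendritic-like cells of tumor library 4 and in 2.13% to 2.38% elsewhere, from 4 of 85 cells against 1 or 2 cells in each other library. Ccr7 was found in 1.15% of neutrophil-like cells of tumor library 2 and in 0.18% to 0.277% elsewhere, from 13 cells against 2 to 4. Ccrl2 was found in 74.4% of monocyte/macrophage-like cells of tumor library 5, below a narrow range of 75.3% to 75.5%.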

How the results depend on the processing

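The calls of the 5 tested receptors between B-MF and Mo-MF kept their direction and side of the threshold in each alternative that gave a value, 58 for levels and 43 for shares, and Cxcr2 had no value once neutrophil-like cells were left out. With 1 library of a culture left out, the remaining one was assumed to vary like the other group. Pair counts were less stable. In B-MF, pairs below 1 went from 3 to between 6 and 7 and pairs above 1 from 2 to 5 when either library was left out, since a single library then decides, and pairs above 1 fell to 1 when a positive cell needed 2 corrected counts. In tumor cells, pairs below 1 went from 12 to 4 within clusters. Of the receptor regions stronger and weaker in BM, 1 and 8 were left of 7 and 13 when a peak had to cover 50% of its region, which left 19 regions to test. In that fit 21.5% and 23.6% of all 18085 regions were stronger and weaker. With the RefSeq gene bodies 5 of 17 receptor regions were weaker, against 28.2% of all regions. Regions with peaks in every spleen and no BM library numbered 1 to 2 with single libraries left out, 2 of them without spleen CSF1R+ replicate 1.

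Among the region values, 482 kept their call, 20 lost it, 6 gained it and 8 reversed, all 8 in regions that did not pass the test. The kept calls include 17 of the RefSeq gene bodies, which list the main fit again and could not change. The fit on peaks with a stricter q-value is not in this tally. Cx3cr1 region 1 reversed to 0.0619 under quantile normalization and 0.0300 with the 50% cover. Cx3cr1 region 10 reversed to 0.0383 under quantile normalization and ranged from -0.0650 to 0.0257 with single libraries left out. Cxcr4 region 3 reversed to -0.0271 as deposited and ranged from -0.0184 to 0.0896 with single libraries left out. The causes were not tested.

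The labels state no pairing of libraries by replicate number, so the unpaired fit was kept as the main one. Same-numbered ATAC-seq libraries of a tissue had correlations of 0.0331 to 0.153, against -0.161 to 0.0550 for other numbers, and 12 of 12 correlated best with their own number. The correlation of the cultures was 0.126 over 2 pairs. With the replicate block, 11 of all regions were called higher in CSF1R+ cells of BM and 0 receptor regions. In the same fit 7 receptor regions were stronger and 11 weaker in BM, against 23.0% and 27.0% of all regions. The receptors tested between B-MF and Mo-MF stayed at 1 higher and 4 lower with a replicate block. The number of cells limits the rare receptors, and read depth of the ATAC-seq libraries is unknown.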
